A study of Mus musculus with 33 samples.

Results

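The effect of losing Ptpmt1 in cardiomyocytes that also carry an Eif2a mutation was measured by comparing double mutant with Eif2a mutant libraries. These are 6 of the 33 samples of the series, 3 of each genotype, chosen by their genotype labels alone. All 6 come from the mouse line titled FST, in which a cardiomyocyte-specific Ptpmt1 knockout was crossed with an Eif2a mutation. The Eif2a mutant group is labelled as carrying only the Eif2alpha mutation, and the double mutant group carries the same mutation together with the Ptpmt1 knockout, so that both groups share the Eif2a mutation. The other libraries of the line, 3 controls and 3 carrying the Ptpmt1 knockout only, gave the effect of Ptpmt1 loss without the mutation. The RNA is labelled nuclear RNA of cardiomyocytes, and ribosomal RNA was removed before library preparation. The sources used here do not state the animals' age, the driver of the knockout, the exact Eif2a mutation or whether each library came from a separate animal. Without that last point, p-values measure the spread between these samples, which may be technical.

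Ptpmt1 is a mitochondrial phosphatase that produces phosphatidylglycerol, the precursor of cardiolipin, an inner membrane lipid that respiratory complexes need. When mitochondria fail, kinases can phosphorylate the alpha subunit of eIF2, a translation initiation factor, which lowers general translation and raises the translation of the transcription factor Atf4. Atf4 and its partners then induce genes of amino acid synthesis, amino acid uptake and tRNA charging, a programme called the integrated stress response. The labels write Eif2a for this alpha subunit, whose gene symbol is Eif2s1, while the gene named Eif2a in the tables encodes a different protein. Comparing double mutant with Eif2a mutant cells asks what Ptpmt1 loss does to transcripts when this alpha subunit is mutated.

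Atf4 binds, with partners of the C/EBP family, a composite element that is commonly written TGATGNAA, and several of the stress response genes described below are known targets of it. Sequences are shown here for 5 stress response genes that rose in the Ptpmt1 knockout of this line and hold that element close to their start, because these are the genes whose response is compared between backgrounds. Each is a 30-base window upstream of the RefSeq gene start, from the RefSeq table of GRCm38.p6, given 5′ to 3′ on the gene's strand with the element in capitals.
Asns, chr6:7693214-7693243, minus strand: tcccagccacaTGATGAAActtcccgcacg
Gars, chr6:55037960-55037989, plus strand: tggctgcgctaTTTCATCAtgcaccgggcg
Chac1, chr2:119351038-119351067, plus strand: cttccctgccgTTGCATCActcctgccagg
Slc7a11, chr3:50443661-50443690, minus strand: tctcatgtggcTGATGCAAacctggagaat
Tars, chr15:11399659-11399688, minus strand: gggccaggagtcccgTTGCATCAgctggtt
In Asns and Slc7a11 the capitals read in the gene's direction. In Gars, Chac1 and Tars they are the same element on the opposite strand, read as its reverse complement. Slc7a11 also holds the element on the opposite strand, 47 bases before its gene start and outside the window shown. The element starts 23 bases before the gene start in Asns and 193 bases before it in Chac1. In the 250 bases upstream of the start, searched on both strands, it was found in 10 of 47 matched genes of the stress response lists (21.3%). It was found in 253 of 10626 matched genes tested here (2.38%) and in 1134 of 32851 promoters of the table (3.45%). Among genes that rose in the Ptpmt1 knockout 6 of 35 matched genes held it (17.1%), and among those that fell 1 of 18 did (5.56%). A match is a description of these letters and not a measured binding site.

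Ptpmt1 itself was the check of the labels. Its normalized count, the read count divided by a size factor for the library, was 149.7, 163 and 158 in the 3 Eif2a mutant libraries and 46.7, 39.8 and 49.2 in the 3 double mutant libraries. Every double mutant library lay below every Eif2a mutant library, and the mean in the double mutant was 28.8% of that in the Eif2a mutant. The log2 fold change was -1.78 ± 0.17 (SE, limma adjusted p = 0.000358). In libraries without the mutation Ptpmt1 fell by 2.17 on the log2 scale, and the effects on both backgrounds differed by 0.40 ± 0.24 (adjusted p = 0.742). The gene lies on chromosome 2, 90908716 to 90918258 in GRCm38 on the minus strand, and its exons overlap those of Kbtbd4 and Gm17661. How strand was used in counting is not stated in these sources, and reads in the shared stretch cannot be assigned. Kbtbd4 had a log2 fold change of -0.05 ± 0.12 (adjusted p = 0.921). Eif2s1 RNA was 1087, 729.5 and 717 in the Eif2a mutant and 838, 928 and 779.8 in the double mutant, and these ranges overlapped.

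**Figure D1:**
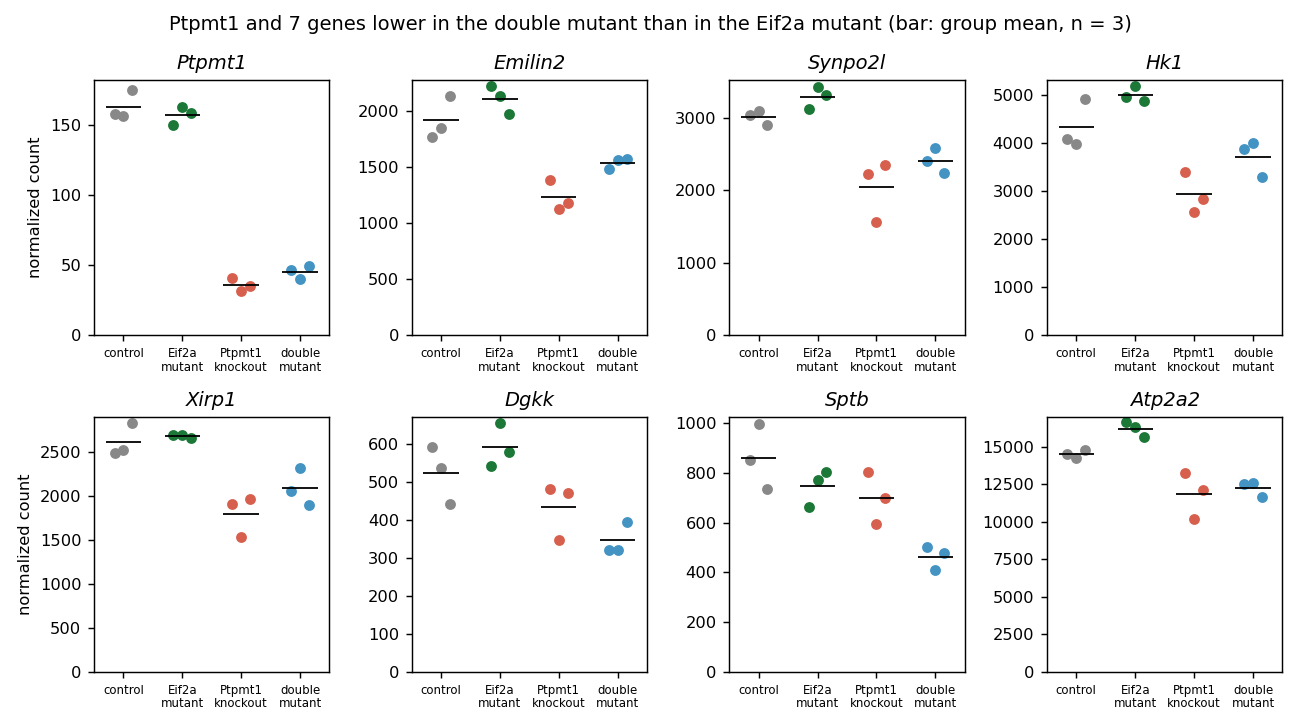
Normalized counts of Ptpmt1 and 7 other genes in the 12 libraries of the line, by group, with a bar at each group mean (n = 3). Ptpmt1 sits between 39.8 and 49.2 in the double mutant, and in each panel all 3 double mutant points lie below the 3 Eif2a mutant points.

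A pair of libraries stood apart. Double mutant replicate 2 held 1887978 reads in genes and Eif2a mutant replicate 1 held 6535417, with 15336 and 15157 genes detected, against at least 17567 in each other library of the line. Their median correlations with the other libraries were 0.954 and 0.945, against at least 0.970 elsewhere. The other 4 libraries compared held 6871739 to 11211547 reads. All 3 Eif2a mutant libraries and 2 of 3 double mutant libraries showed a male expression pattern, and double mutant replicate 1 a female one. Of the libraries without the mutation, all 3 Ptpmt1 knockout libraries and 1 of 3 controls showed the male pattern, so the groups behind the difference between backgrounds are not matched for sex. Cardiomyocyte marker genes were abundant in every library: the summed normalized count of 12 markers was 437200 to 563000 in the Eif2a mutant and 487500 to 640300 in the double mutant. Taken gene by gene, 9 of the 12 had a log2 fold change below 0 (49.6% of all genes did), with a median of -0.07. In 4 of them all double mutant libraries lay below all Eif2a mutant libraries (8.23% of all genes), and in 0 above (6.71%).

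Ptpmt1 was the only gene called between the double mutant and the Eif2a mutant, where called means a Benjamini-Hochberg adjusted p under 0.05 from limma over the 13896 genes tested. That is 0.0072% of genes, with 0 genes called higher. An unadjusted p under 0.05 was reached by 1131 genes (8.14%), of which 540 were higher (3.89%) and 591 lower (4.25%) in the double mutant. The 1131 became 728 without double mutant replicate 2 and 619 without both libraries that stood apart. edgeR on whole reads recovered from the deposited values also called 1 gene (0.0072%), and 862 genes (6.2%) had an unadjusted p under 0.05 there. DESeq2 called 20 of the 6349 genes to which it gave an adjusted p (0.315%), 3 higher (0.0473%) and 17 lower (0.268%), but gave none to Ptpmt1. The higher ones included the X chromosome RNA Xist, at 11420 in double mutant replicate 1, the library with the female pattern. Xist was at 13.26 and 76.11 in the other double mutant libraries and at 20.98 to 25.79 in the Eif2a mutant. When limma weighted the libraries by their quality, 55 genes were called (0.396%), 19 higher (0.137%) and 36 lower (0.259%). The same limma test called 70 genes (0.504%) between the Ptpmt1 knockout and control libraries, 45 higher (0.324%) and 25 lower (0.18%). That comparison shares no library with the one between the double mutant and the Eif2a mutant. Without both libraries that stood apart Ptpmt1 was again the only gene called by limma, with a log2 fold change of -1.72 (adjusted p = 0.00517).

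Of the 24 stress response genes that rose in the Ptpmt1 knockout, 0 were called when the Eif2a mutation was present, and 10 were above 0 and 14 below. That balance turned to 16 above and 8 below without Eif2a mutant replicate 1, and to 15 and 9 without both libraries that stood apart. Asns, which makes asparagine, was called in the test of the difference between backgrounds, as were Trib3, a pseudokinase that restrains growth signalling and Atf4, and Mthfd2, a mitochondrial folate enzyme. These 3 were the only genes called in that test (0.0216% of genes), and all had the lower effect with the mutation. An unadjusted p under 0.05 in it was reached by 462 genes with a higher effect (3.32%) and 519 with a lower one (3.73%). edgeR called 5 genes in it (0.036%), DESeq2 32 (0.245%) and limma with array weights 324 (2.33%). The 32 included Xist, and these groups are not matched for sex. The count of 3 became 7 without Eif2a mutant replicate 1, 5 without double mutant replicate 2 and 9 without both. It became 8 without control replicate 3, 5 without Ptpmt1 knockout replicate 2 and 35 without Ptpmt1 knockout replicate 3.

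Asns counts were 189, 279 and 240.3 in the Eif2a mutant and 300.4, 283 and 264 in the double mutant, against 976, 1187 and 1452 in the Ptpmt1 knockout and 212, 224 and 259.5 in control. The ranges of the double mutant and the Eif2a mutant overlapped, while every knockout library exceeded every library of the other 3 groups. The log2 fold change of Asns was 0.27 ± 0.15 with the mutation (95% interval -0.06 to 0.60, adjusted p = 0.64, and 0.12 without both libraries that stood apart) and 2.36 ± 0.15 without it. The difference between them was -2.09 ± 0.22 (95% interval -2.55 to -1.62, adjusted p = 0.000525). It was called in all 24 alternative fits that gave it a value. Asns lies on the minus strand of chromosome 6, 7675169 to 7693254 in GENCODE. The element shown above is upstream of its RefSeq start, but the window, 7693214 to 7693243, lies inside the gene as GENCODE draws it.

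Trib3 was at 14.8, 14.96 and 13.2 in control and at 69.8, 39.0 and 45.1 in the Eif2a mutant, with no overlap (adjusted p = 0.155 for that difference). In the double mutant it was 33.5, 26.5 and 32.8, with all 3 libraries below those of the Eif2a mutant and above those of control. In the knockout it was 181, 160.1 and 457. The log2 fold change was -0.68 ± 0.34 with the mutation (95% interval -1.40 to 0.05, adjusted p = 0.623) and 3.96 ± 0.34 without it, a difference of -4.63 ± 0.48 (adjusted p = 0.000525). Without both libraries that stood apart the value with the mutation was -0.33. The difference lost its call in edgeR without both libraries that stood apart (adjusted p = 0.0931).

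Mthfd2 was 260.1, 234 and 195 in the Eif2a mutant and 235, 269.6 and 204 in the double mutant, which overlapped, and 783, 813 and 1275 in the knockout. Its log2 fold change was 0.04 ± 0.17 with the mutation (95% interval -0.33 to 0.41) and 1.88 ± 0.17 without it. The difference of -1.84 ± 0.25 (adjusted p = 0.00834) was not called with a sex term in the fit (adjusted p = 0.0784) or in edgeR without both libraries that stood apart (adjusted p = 0.103).

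**Figure D2:**
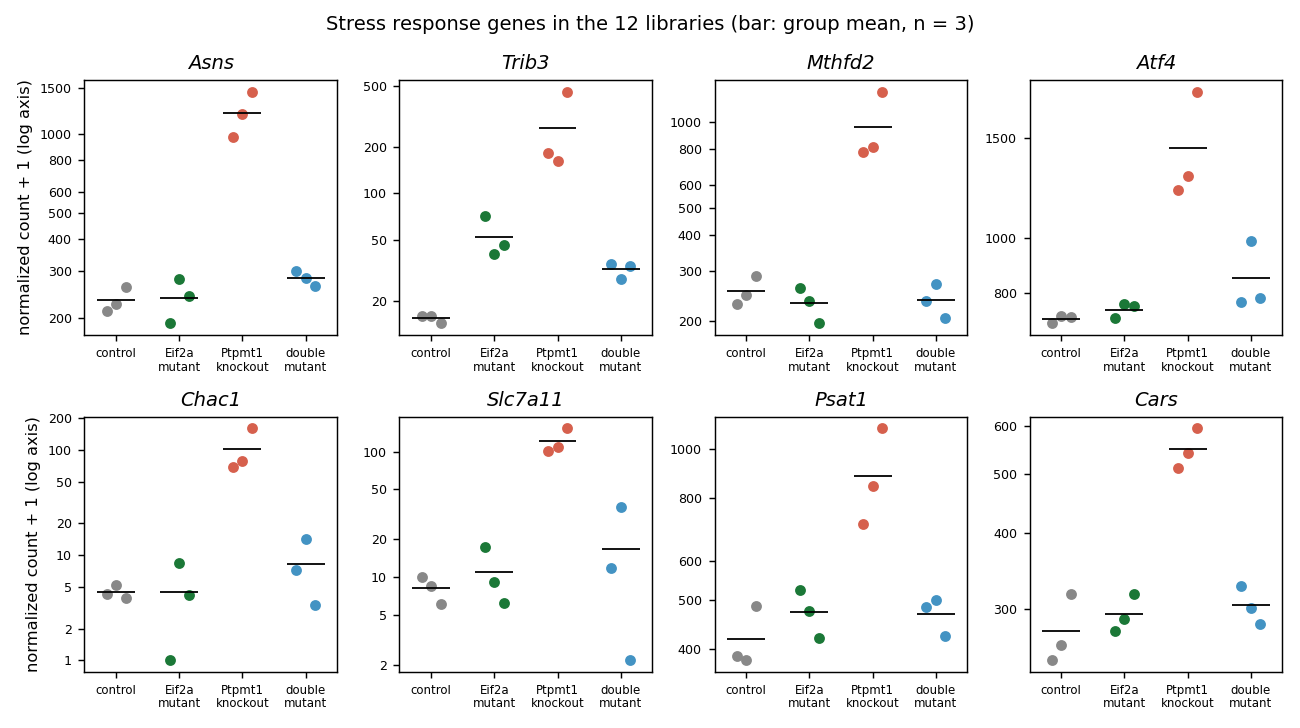
Normalized count plus 1, on log axes, of 8 stress response genes in the 12 libraries, with a bar at each group mean (n = 3). The knockout points lie above all others in every panel, for example 976 to 1452 for Asns against 264 to 300 in the double mutant.

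Next in order by p for the difference between backgrounds were Xpot, which exports tRNAs from the nucleus, the cysteine tRNA synthetase Cars, and Trim66, a chromatin reader. Xpot had a difference of -0.83 ± 0.13 (adjusted p = 0.0503), Cars of -0.95 ± 0.16 (adjusted p = 0.0769) and Trim66 of -6.30 ± 1.10 (adjusted p = 0.0769). Cars was 275, 287 and 317 in the Eif2a mutant and 327, 300.5 and 282 in the double mutant, against 512, 540 and 593 in the knockout. Trim66 was 3.81, 1.47 and 1.05 in the Eif2a mutant and 2.33, 4.42 and 0 in the double mutant, and 58.9, 66.3 and 156 in the knockout. Their double mutant and Eif2a mutant ranges overlapped in all 3 genes, and none of them passed the threshold in this fit.

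The regulators of the stress response, 17 tested genes of 20 listed, had a median log2 fold change of -0.21 in the double mutant against the Eif2a mutant. Of these 6 were above 0 and 11 below, beside 50.4% and 49.6% of all genes tested. The median lay between -0.29 and -0.04 over the alternative settings, at -0.04 without double mutant replicate 2 and at -0.05 without Eif2a mutant replicate 2. Atf4 was 723, 764 and 759 in the Eif2a mutant and 773, 990 and 786 in the double mutant, so that all 3 double mutant libraries were above, by 0.17 ± 0.13 on the log2 scale (adjusted p = 0.709). The highest of them, 990, was the shallow double mutant replicate 2, and the difference shrank to 0.03 without both libraries that stood apart. Without the mutation, the knockout held 1216, 1285 and 1809.

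Other regulators went both ways. Of the 17, 1 had all double mutant libraries above all Eif2a mutant libraries and 4 had them below, against 6.71% and 8.23% of all genes. Atf5, a factor related to Atf4, was 208, 133 and 127 in the Eif2a mutant and 127, 110.5 and 117 in the double mutant, a log2 fold change of -0.36 ± 0.31. Ddit3, the pro-apoptotic factor CHOP, was 24.1, 90.6 and 75.5 and 63.0, 61.9 and 114, a log2 fold change of 0.46 ± 0.40. The ranges overlapped for Ddit3. For Atf5 the double mutant was below in every library, but its highest value and the lowest of the Eif2a mutant both round to 127. Without both libraries that stood apart Atf5 was at -0.09 and Ddit3 at 0.03. Chac1, which degrades glutathione, was 0, 7.37 and 3.15 in the Eif2a mutant and 6.23, 13.3 and 2.34 in the double mutant against 67.6, 76.7 and 158 in the knockout. Its log2 fold change of 1.10 ± 0.73 had a 95% interval of -0.46 to 2.66 and became -0.26 without both libraries that stood apart. Sesn2, an inhibitor of mTORC1, had a log2 fold change of -0.21 ± 0.25, and overlapped. Ero1l, an oxidase of the endoplasmic reticulum, was the 1 regulator with an unadjusted p under 0.05: 707, 681 and 656 in the Eif2a mutant and 578, 517 and 557 in the double mutant, below in every library, with a log2 fold change of -0.31 ± 0.10 (adjusted p = 0.573). The secreted stress signal Gdf15 stayed at 4.42 or less in both groups and was not tested, and Fgf21 was at 0 in all 12 libraries. For all 17 regulators the effect was lower with the mutation than without it, against 48.6% of all genes. In 9 of them it was lower with an unadjusted p under 0.05, against 3.73% of all genes.

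**Figure D3:**
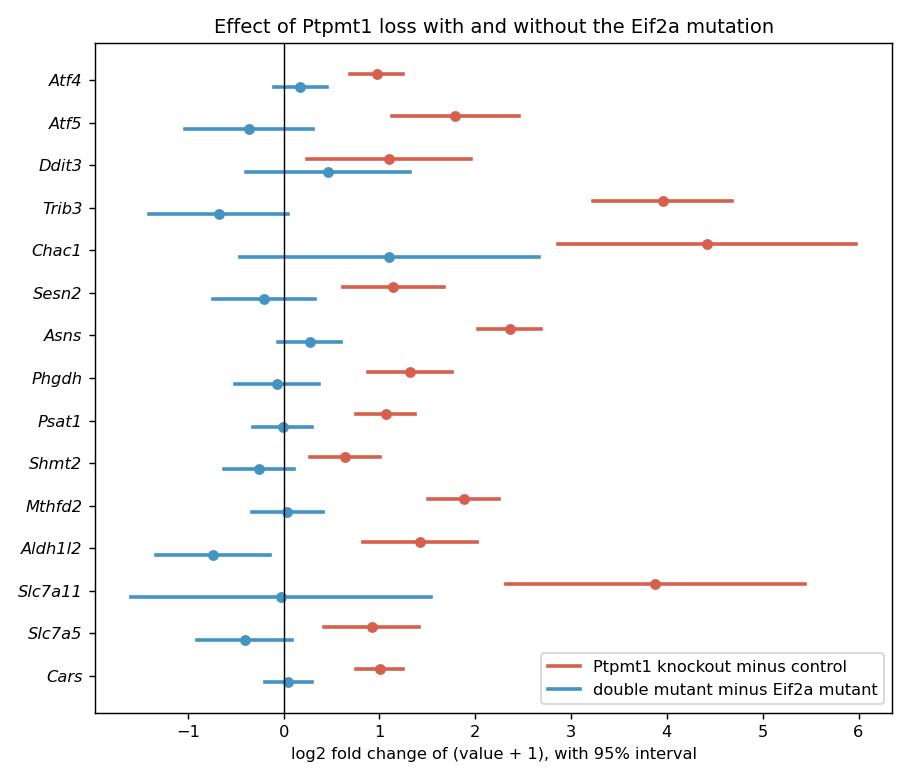
Log2 fold changes of 15 stress response genes with their 95% intervals, for Ptpmt1 loss without the Eif2a mutation and with it. The intervals with the mutation include 0 in 14 of the 15 genes, while those without it lie above 0 in all 15.

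Enzymes of amino acid and one-carbon synthesis, 17 tested genes, had a median log2 fold change of -0.05 with the mutation and 0.79 without it. Phgdh, which starts serine synthesis, was 166, 225 and 195 in the Eif2a mutant and 199, 186 and 172 in the double mutant, and 391, 412 and 715 in the knockout. Psat1, its next enzyme, was 524, 476 and 421 and 485, 499 and 424, and 709, 842 and 1097 in the knockout. The double mutant and Eif2a mutant ranges overlapped for both, and their log2 fold changes were -0.06 ± 0.21 and -0.01 ± 0.15, or -0.18 and 0.02 without both libraries that stood apart. Shmt2, which passes serine carbon to mitochondrial folate, was 768, 704 and 704 in the Eif2a mutant and 616, 614 and 588 in the double mutant, below in every library, at -0.26 ± 0.17 (adjusted p = 0.679).

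Aldh1l2, a mitochondrial folate enzyme that makes NADPH, was 349, 376 and 335 in the Eif2a mutant and 272, 155 and 224 in the double mutant. All 3 double mutant libraries were lower, in the direction opposite to that in the knockout, where it was 1090, 793 and 1755 against 541, 535 and 271 in control. The log2 fold change was -0.74 ± 0.28 with the mutation (95% interval -1.34 to -0.14, adjusted p = 0.582) and 1.42 ± 0.28 without it, and the difference was -2.16 ± 0.40 (adjusted p = 0.0907). The alanine transaminase Gpt2 had a log2 fold change of -0.05 ± 0.22 with the mutation (-0.16 without both libraries that stood apart) and 1.53 ± 0.22 without it. In 14 of the 17 enzymes the effect was lower with the mutation (48.6% of all genes), in 11 with an unadjusted p under 0.05 (3.73%).

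Amino acid transporters, 12 tested genes, had a median log2 fold change of 0.00 with the mutation and 0.69 without it. Slc7a11, the cystine importer, was 16.5, 8.11 and 5.25 in the Eif2a mutant, 10.9, 35.4 and 1.17 in the double mutant and 99.4, 108 and 152 in the knockout. Its double mutant libraries were spread on both sides of the Eif2a mutant range, and the highest value, 35.4, is 8 reads in the shallow replicate 2. Slc7a3, a cationic amino acid carrier, was 31.7, 8.84 and 13.6 in the Eif2a mutant and 15.6, 0 and 9.37 in the double mutant against 192, 190.4 and 362 in the knockout. Slc7a5, the leucine carrier, was 496, 416 and 382 in the Eif2a mutant and 303, 376 and 299 in the double mutant, all lower, at -0.40 ± 0.23 (adjusted p = 0.64). In 10 of 12 transporters the effect was lower with the mutation (48.6% of all genes), in 7 with an unadjusted p under 0.05 (3.73%).

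The cytosolic tRNA synthetases load amino acids onto tRNAs. Over 20 genes the median log2 fold change was -0.01 with the mutation, with 9 genes above 0 and 11 below, and 0.52 without it. Gars, the glycine enzyme whose upstream element is shown above, was 2240, 2054 and 1855 in the Eif2a mutant and 1993, 2139 and 1913 in the double mutant, and 2899, 3000 and 3366 in the knockout. Iars, the isoleucine enzyme, was 1470, 1347 and 1223 and 1341, 1330 and 1316, and 1903, 1959 and 2227 in the knockout. The groups with the mutation overlapped for both, while every knockout library was higher. In 17 of the 20 the effect was lower with the mutation (48.6% of all genes), in 12 with an unadjusted p under 0.05 (3.73%). The mitochondrial synthetases, 17 genes, had medians of -0.05 with the mutation and -0.04 without it.

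The 4 stress response lists together held 66 tested genes of 70. In the double mutant against the Eif2a mutant 27 were above 0 and 39 below, with a median of -0.03, beside a median of 0.00 over all genes. Without Eif2a mutant replicate 1 they were 37 and 29, with a median of 0.01. Of the 66, 0 had an unadjusted p under 0.05 and a higher value and 2 had one and a lower value (Ero1l and Aldh1l2), against 3.89% and 4.25% of all genes. In 2 all double mutant libraries lay above all Eif2a mutant libraries and in 10 below, against 6.71% and 8.23% of all genes. The effect of Ptpmt1 loss was lower with the mutation than without it in 58 of the 66, against 48.6% of all genes, and in 39 with an unadjusted p under 0.05, against 3.73%. The lists were drawn up with earlier results of these data known, so these counts are not independent evidence of direction.

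The genes that sense and set eIF2 phosphorylation were examined next, since they act upstream of Atf4. Eif2ak1, the kinase Hri that responds to haem and mitochondrial stress, was 396, 338 and 371 in the Eif2a mutant and 367, 384 and 355 in the double mutant. Eif2ak4, the amino acid sensor Gcn2, was 514, 462 and 444 and 461, 415 and 472. Both overlapped, with log2 fold changes of 0.00 ± 0.10 and -0.07 ± 0.10, or 0.03 and 0.04 without both libraries that stood apart. The double-stranded RNA kinase Eif2ak2 had a log2 fold change of 0.31 ± 0.17, and the endoplasmic reticulum kinase Eif2ak3 one of 0.28 ± 0.16. In both the highest value was in double mutant replicate 2, and without the same pair of libraries they were 0.19 and 0.05.

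In the same list of 18 genes, 12 were above 0 and 6 below, beside 50.4% and 49.6% of all genes. The pair with an unadjusted p under 0.05 was lower (4.25% of all genes were). Without both libraries that stood apart 0 members were lower at that p. Dele1, which carries mitochondrial stress to Hri, was 733, 639 and 606 in the Eif2a mutant and 550.2, 499 and 591 in the double mutant, below in every library, at -0.27 ± 0.10 (adjusted p = 0.575). It was -0.13 without both libraries that stood apart, and -0.26 ± 0.10 without the mutation. Eif2b5, a subunit of the exchange factor that phosphorylated eIF2 inhibits, was 648, 591 and 616 and 526, 513 and 539.8, at -0.23 ± 0.10. Eif2s2, the beta subunit, rose in the knockout (0.69 ± 0.08) and was 0.12 ± 0.08 with the mutation.

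The 70 genes called in the knockout were then followed in the libraries with the mutation, a comparison added after the data were seen. The knockout and control libraries that chose these genes are not part of the comparison with the mutation. The 45 genes that rose in the knockout, by a median of 0.92, divided into 22 above 0 and 23 below with the mutation, with a median of -0.01. An unadjusted p under 0.05 was reached by 3 higher and 2 lower genes, against 3.89% and 4.25% of all genes. In 7 of the 45 all double mutant libraries lay above all Eif2a mutant libraries and in 5 below, against 6.71% and 8.23%. The 25 genes that fell in the knockout, by a median of 0.57, were below 0 in 23 cases with the mutation, with a median of -0.24. Without Ptpmt1 this was 22 of 24, against 49.6% of all genes. Of those 24, 11 had an unadjusted p under 0.05 and were lower, against 4.25% of all genes, and in 13 all 3 double mutant libraries lay below all Eif2a mutant libraries, against 8.23% of all genes. Over all alternative settings 20 to 23 of these genes stayed below 0, and without both libraries that stood apart 21 of 24 did, 8 of them with an unadjusted p under 0.05. The 11 became 7 without double mutant replicate 3.

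**Figure D4:**
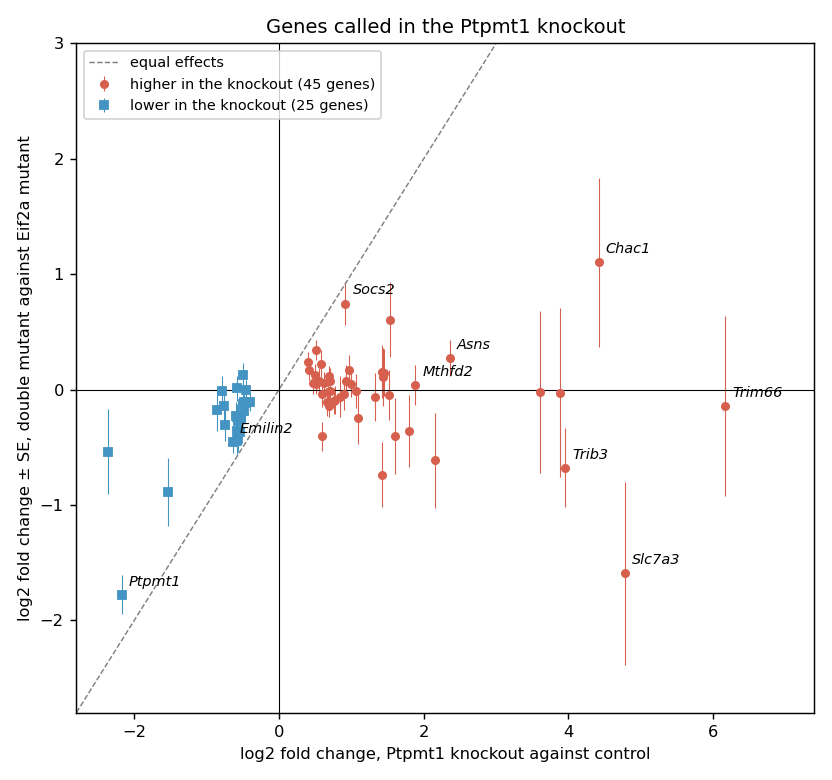
Log2 fold changes of the 70 genes called in the Ptpmt1 knockout, without the Eif2a mutation on the x axis and with it on the y axis (± SE), with a dashed line where both are equal. The 45 genes that rose lie around 0 on the y axis (22 above, 23 below), and 23 of the 25 that fell lie below 0.

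The genes of these 24 described next were chosen after their values were seen, and 0 of them were called with the mutation. Synpo2l, an actin-binding protein of the Z disc, was 3118, 3431 and 3317 in the Eif2a mutant and 2409, 2585 and 2238 in the double mutant, at -0.45 ± 0.12 (adjusted p = 0.429), and -0.58 ± 0.12 without the mutation. Xirp1, an actin-binding protein of the intercalated disc, was 2698, 2697 and 2657 and 2054, 2316 and 1903, at -0.36 ± 0.10 with the mutation and -0.55 ± 0.10 without it. The groups did not overlap in either gene, with the lower values in the double mutant. Des, the muscle intermediate filament desmin, was 5860, 5854 and 5632 in the Eif2a mutant and 5454, 5091 and 4701 in the double mutant, a log2 fold change of -0.19 ± 0.09 against -0.49 ± 0.09 without the mutation. The kinase Alpk2 was at -0.36 ± 0.12 and the Z disc protein Cmya5 at -0.27 ± 0.12, both below in every library.

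Emilin2, a glycoprotein of the extracellular matrix, was 2218, 2132 and 1970 in the Eif2a mutant and 1476, 1560 and 1570 in the double mutant, without overlap. The log2 fold change was -0.45 ± 0.09 with the mutation (adjusted p = 0.332) and -0.64 ± 0.09 without it. Hk1, which phosphorylates glucose at the outer mitochondrial membrane, was 4954, 5187 and 4883 in the Eif2a mutant and 3873, 4000 and 3293 in the double mutant, at -0.43 ± 0.11 against -0.57 ± 0.11. Both genes were lower in every double mutant library. Atp5k, a subunit of ATP synthase, was 239.8, 315 and 304 and 233, 221 and 235, at -0.31 ± 0.14, and Efnb3, a membrane-bound ephrin, was at -0.26 ± 0.09. Rmrp, the RNA of a mitochondrial and ribosomal RNA-processing ribonuclease, was 17630, 20650 and 16160 in the Eif2a mutant and 11460, 7619 and 10610 in the double mutant, at -0.89 ± 0.30 (adjusted p = 0.575), and -1.53 ± 0.30 without the mutation.

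Other genes that fell in the knockout had log2 fold changes near 0 with the mutation. Gja5, an atrial and conduction gap junction protein, was at -0.01 ± 0.13 (95% interval -0.29 to 0.26) and Speg, a sarcomere-associated kinase, at 0.00 ± 0.09 (95% interval -0.20 to 0.19). Both overlapped between the groups with the mutation, and without both libraries that stood apart they were at 0.03 and -0.11. Col13a1, a transmembrane collagen, was at 0.12 ± 0.10.

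Among the genes that rose in the knockout, those outside the stress response lists numbered 21, and 12 of them were above 0 with the mutation. In 6 all double mutant libraries lay above all Eif2a mutant libraries and in 2 below, against 6.71% and 8.23% of all genes. Socs2, which restrains cytokine and growth hormone signalling, was 93.9, 108 and 114 in the Eif2a mutant and 213, 137 and 189.7 in the double mutant, at 0.75 ± 0.19 (adjusted p = 0.383) against 0.92 ± 0.19 without the mutation. Marcks, a protein kinase C substrate at the membrane, was 1588, 1594 and 1754 and 2141, 2219 and 1904, at 0.34 ± 0.09 against 0.51 ± 0.09. Enc1, an actin-associated adaptor, was at 0.24 ± 0.08 against 0.40 ± 0.08. These 3 were the higher genes with an unadjusted p under 0.05, and in each all 3 double mutant libraries were above. Phf10, a chromatin remodelling subunit, went the other way, at -0.41 ± 0.13 with the mutation (-0.26 without both libraries that stood apart) and 0.60 ± 0.13 without it, and its difference of -1.004 ± 0.18 had an adjusted p of 0.0769.

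The 25 genes with the smallest p between the double mutant and the Eif2a mutant were listed after their values were seen. Of these 21 were lower and 4 higher in the double mutant. Apart from Ptpmt1 their adjusted p lay between 0.288 and 0.367, so none passed the threshold. Dgkk, a diacylglycerol kinase on the X chromosome, was 543, 655 and 578 in the Eif2a mutant and 321, 323 and 396 in the double mutant, at -0.77 ± 0.14 (adjusted p = 0.288). Sptb, the beta spectrin of red cells and striated muscle, was 661, 772 and 805 and 500.4, 411 and 478, at -0.69 ± 0.13. The groups overlapped in neither gene, the lower values being those of the double mutant, and DESeq2 gave adjusted p of 0.00367 and 0.00825. Erythroid marker genes also had lower values in the double mutant, and their part in the value of Sptb was not tested.

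The same 25 genes included Atp2a2 and Hrc. Atp2a2, the calcium pump of the sarcoplasmic reticulum, was 16670, 16320 and 15670 in the Eif2a mutant and 12520, 12560 and 11680 in the double mutant. Its log2 fold change was -0.41 ± 0.09 (limma adjusted p = 0.367, DESeq2 adjusted p = 0.00825), and -0.30 ± 0.09 without the mutation. Hrc, a calcium-binding protein of the same compartment, was 1226, 1320 and 1293 and 989.9, 906 and 973, at -0.42 ± 0.10. Both were lower in every double mutant library. The matrix protein Thbs4 was at -0.47 ± 0.10 and the phosphoglucomutase-like junction protein Pgm5 at -0.52 ± 0.12.

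Hjurp, the chaperone that loads the centromeric histone, was 2092, 3018 and 2724 in the Eif2a mutant and 1609, 1803 and 1522 in the double mutant, at -0.65 ± 0.13 (adjusted p = 0.332). In the knockout against control it went the other way, at 0.24 ± 0.13. The 4 higher genes included Dock4, a guanine exchange factor for Rac, at 278, 336 and 325 in the Eif2a mutant and 439, 609.9 and 443 in the double mutant. Its log2 fold change was 0.65 ± 0.13, and 0.41 without both libraries that stood apart. Tspan13, a tetraspanin, was 401, 266 and 263 and 458, 619 and 553, at 0.82 ± 0.17. Crbn, a substrate receptor of a ubiquitin ligase, was at 0.58 ± 0.13. All 3 were higher in every double mutant library. Across 9397 genes with a mean of at least 100, sex-linked genes left out, the effects of Ptpmt1 loss with and without the mutation had a Pearson r of 0.217 and a Spearman rho of 0.210, given as a description over genes, which are not independent.

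Ptpmt1 acts in the mitochondrion, and lists of mitochondrial genes were examined next. Complexes II to V of the respiratory chain, 41 genes, had a median of -0.05, with 26 below 0 (49.6% of all genes were). Of the 41, 6 were lower at an unadjusted p under 0.05 (4.25% of all genes). Without both libraries that stood apart 24 were below 0 and 2 were lower at that p, with a median of -0.03. Their median was -0.19 without the mutation. Sdha, the flavoprotein of complex II, was 3396, 3631 and 3450 in the Eif2a mutant and 3049, 2868 and 2871 in the double mutant, at -0.25 ± 0.09, and Cox6c, a subunit of complex IV, was at -0.30 ± 0.10 (-0.13 without both libraries that stood apart). Both were lower in every double mutant library. The TCA cycle and pyruvate dehydrogenase list, 23 genes, had a median of -0.08 with and without the mutation. Its summed count was 43920 to 45890 in the Eif2a mutant and 41180 to 41780 in the double mutant. An unadjusted p under 0.05 was reached by 4 members, all lower (4.25% of all genes): Ogdh, Sdha, Dlst and Sucla2. Without both libraries that stood apart 3 members were lower at that p. Sdha is also among the 6 counted for complexes II to V. Ogdh, of the 2-oxoglutarate dehydrogenase complex, was 3915, 3792 and 3461 and 3088, 2939 and 2814, at -0.34 ± 0.10 (adjusted p = 0.514). Complex I, 37 genes, had a median of -0.02 with the mutation and -0.12 without it. The 8 tested mitochondrially encoded genes had a median of 0.02 with the mutation. Without the mutation the median of these 8 was 0.54, and 0.07 when control replicate 3 was left out, in which mitochondrially encoded genes made up 0.675% of all counts against 1.39% to 1.80% in the other 11 libraries. The effect was lower with the mutation in 8 of 8 (48.6% of all genes), or in 6 of 8 without that control. In either fit 0 had an unadjusted p under 0.05. Cardiolipin synthesis and remodelling, 15 genes, had 1 member at an unadjusted p under 0.05, Ptpmt1.

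Sarcomere and calcium handling genes, 21 in all, had a median of -0.09 with the mutation, with 16 below 0 (49.6% of all genes were) and 8 below in every library (8.23% of all genes). Without the mutation the median of the 21 was -0.25, with 20 below 0 (51.0% of all genes were). With it, Atp2a2, Des and the myosin-binding protein Mybpc3 (-0.22 ± 0.10) were lower at an unadjusted p under 0.05 (4.25% of all genes were). Without both libraries that stood apart 19 of the 21 were below 0 and 2 were lower at that p. The summed count of the list overlapped, at 502700 to 636100 in the Eif2a mutant and 546200 to 707400 in the double mutant. Of the fetal and stress genes of the heart, Nppa and Nppb, which encode natriuretic peptides, were at -0.20 ± 0.19 and 0.05 ± 0.20 (Nppb at -0.21 without both libraries that stood apart), and the myosin heavy chains Myh6 and Myh7 at -0.16 ± 0.20 and -0.14 ± 0.13, and all 4 overlapped. The chaperone Hspb7 was 4226, 4104 and 3857 in the Eif2a mutant and 3254, 2692 and 2706 in the double mutant, at -0.50 ± 0.17 (adjusted p = 0.575), and the actin crosslinker Flnc was at -0.31 ± 0.13. Both were lower in every double mutant library. Of the cytosolic ribosomal protein genes 63 of 77 were above 0 (50.4% of all genes were), with a median of 0.08 and 7 higher at an unadjusted p under 0.05 (3.89% of all genes). Rps26 was 2479, 2749 and 2721 in the Eif2a mutant and 3188, 2873 and 3170 in the double mutant, at 0.22 ± 0.08. The median of the 77 was -0.03 without the mutation (0.04 when control replicate 3 was left out), and over the alternative settings it stayed between 0.03 and 0.13 with it.

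**Figure D5:**
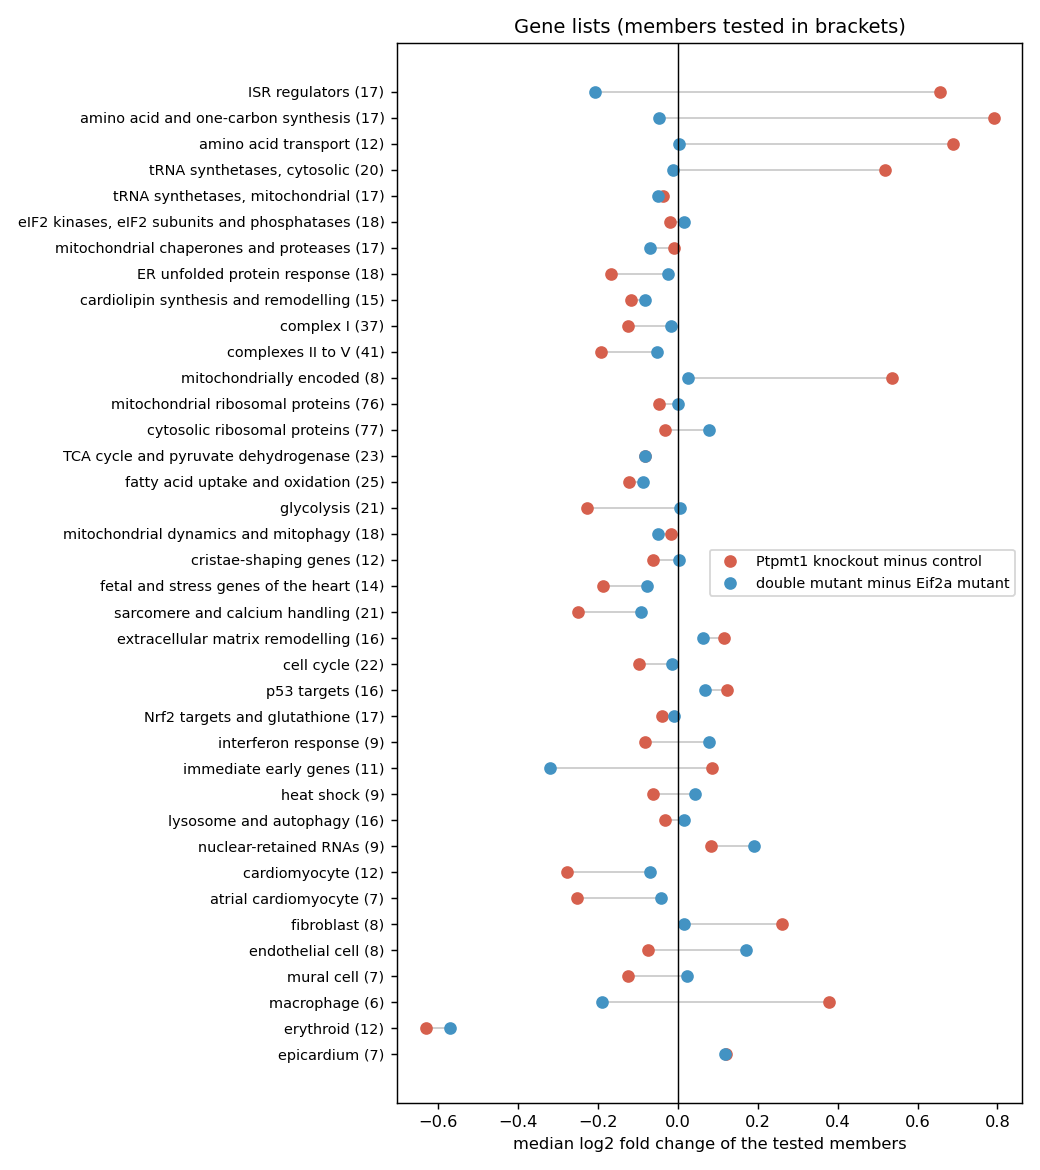
Median log2 fold change of the tested members of each gene list, for Ptpmt1 loss without the Eif2a mutation (Ptpmt1 knockout minus control) and with it (double mutant minus Eif2a mutant). The 4 stress response lists lie between 0.52 and 0.79 without the mutation and between -0.21 and 0.00 with it.

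Markers of other cell types were compared as well, and 0 of them were called. All 12 tested erythroid markers were below 0 in the double mutant, with a median of -0.57 and 7 below in every library (8.23% of all genes were), and their summed count was 12430 to 16260 in the Eif2a mutant and 7876 to 10890 in the double mutant. As a share of all counts this was 0.171% ± 0.0263 and 0.120% ± 0.0224 (SD, n = 3 each), with an exact permutation p of 0.1, two-sided, the smallest that 3 against 3 libraries can give. In the knockout against control all 12 were below 0 too, with a median of -0.63 (-1.18 when control replicate 3 was left out). The values that follow are again those of the groups with the mutation. Of 8 endothelial markers 6 were above 0, with a median of 0.17 and 5 above in every library (6.71% of all genes were), and their summed count was 8679 to 8978 and 9722 to 10280. Pecam1, an endothelial adhesion molecule, was 1157, 1136 and 1188 in the Eif2a mutant and 1382, 1476 and 1432 in the double mutant, at 0.30 ± 0.07 (adjusted p = 0.379), and the sialomucin Emcn was at 0.44 ± 0.11. Summed counts of the fibroblast list, 9467 to 13200 and 10310 to 13530, and of the macrophage list, 349 to 447 and 311 to 498, overlapped. The lymphocyte markers Cd3e, Cd3g, Ms4a1 and Nkg7 were at 0 in all 6 libraries. Fewer cells of a type and less RNA per cell cannot be told apart in these bulk libraries, and the part of other cell types in the differences described above was not tested.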

How the data were processed

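Values were the normalized signal of 32245 genes in 12 libraries of the FST line, as deposited by the authors, 1 column per library. The submitters' processing notes name STAR 2.5.3a, DESeq2 1.12.4 and mm10 without their roles. Which counter, annotation and strand setting were used is not given in the sources used here. Each column's values were whole multiples of 1 step, so that dividing by it gave whole reads (100% of values within a tolerance of 0.1), and 0 value columns had no sample. Other tables of the series were not analysed here. Of the symbols, 26 had become dates and 2 were repeated.

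Genes reaching a value of 10 in at least 3 of 12 libraries (13896) were tested with limma 3.58.1 (intensity trend) in R 4.3.3 on log2(value + 1), in 1 fit of 4 groups without covariates, two-sided, with Benjamini-Hochberg adjustment over all genes and a threshold of 0.05. This scale understates changes of low genes. The test of the difference between backgrounds subtracts the effect of the knockout against control from that of the double against the Eif2a mutant. edgeR 4.0.16 (quasi-likelihood) and DESeq2 1.42.0 were run on the recovered reads as alternatives, and other alternatives varied the pseudocount, filter, scaling, weights, a sex term and the libraries used. Scripts were tested on simulated data. Gene coordinates are those of GENCODE vM21 (GRCm38), and promoters those of RefSeq GRCm38.p6.

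Named genes were the targeted genes and eIF2 kinases, a panel of stress and heart genes, the 12 largest changes each way among genes called and reaching a group mean of 50 (which gave only Ptpmt1), up to 4 members of each list by p, and the 6 genes with the smallest p for the difference between backgrounds. The genes called in the knockout, the 25 genes with the smallest p, the promoter element and the genes named from them were chosen after values were seen. The members and lists were chosen with earlier results of these data known.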

Additional observations from a re-analysis of the deposited data

Results flagged for a closer look

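The effect of Ptpmt1 loss differed between backgrounds, by limma's test of the difference itself, in 3 genes. Trib3 differed by -4.63 on the log2 scale, Asns by -2.09 and Mthfd2 by -1.84, each being the effect with the Eif2a mutation minus the effect without it. In all 3 the Ptpmt1 knockout libraries were above those of the other 3 groups. The control, Eif2a mutant and double mutant ranges overlapped for Mthfd2, while for Asns the lowest double mutant library (264) was above the highest control (259.5), and for Trib3 the double mutant lay between control and the Eif2a mutant.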

How the results depend on the processing

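Between the double mutant and the Eif2a mutant 1 gene, Ptpmt1, was called under every alternative run except 3: DESeq2 called 20 genes, without Ptpmt1, to which it gave no adjusted p; array weights called 55, with it; and without Ptpmt1 knockout replicate 3, 2 were called. Leaving out 1 library at a time gave 1 to 2 genes. The log2 fold change of Ptpmt1 stayed between -1.84 and -1.64. The count of genes whose effect differed between backgrounds was 3, and became 8 with a pseudocount of 8, 6 without a filter on low values, 324 with array weights, 5 with edgeR, 32 with DESeq2, 9 without both libraries that stood apart, and 1 with edgeR without both, a setting chosen after seeing the data. Leaving out 1 library at a time gave 3 to 35. Asns was called in every one of these fits, Trib3 in all but edgeR without both libraries that stood apart (adjusted p = 0.0931), and Mthfd2 in all but that one (0.103) and the fit with a sex term (0.0784). The fit with only the 6 libraries compared has no such difference. Of 45 genes that rose in the knockout 21 to 30 were above 0 with the mutation. Of 616 alternative values of named genes 39 differed in sign from the main value, as did 91 of 950 list medians. The cause of these differences was not tested. Depth limits low genes most in double mutant replicate 2, where 1 read is worth 4.42 normalized counts. No paired analysis was possible because the labels carry no replicate numbers shared between groups, and the numbers used here only name the libraries.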

Other observations

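A few genes not named above are given by their values, with no explanation. Gm7879, an unnamed transcript on chromosome 5, was at 22.8, 28.0 and 21.0 in the Eif2a mutant and at 0 in all 3 double mutant libraries, and it was 11.9, 17.1 and 0 in the Ptpmt1 knockout. It had an adjusted p of 0.288 in limma, and was called with array weights and without Ptpmt1 knockout replicate 3. Zfp990, a zinc finger gene on chromosome 4, was 0, 61.9 and 81.8 in the Eif2a mutant, 0 in all 3 double mutant libraries, and 207.6, 122 and 48.0 in the Ptpmt1 knockout, so that libraries of 1 group differed widely. It was called with array weights. Mgst1, a microsomal glutathione transferase, was 22.8, 31.0 and 30.4 in the Eif2a mutant and 69.3, 53.03 and 63.2 in the double mutant, and its effect had the other sign in the knockout (-0.74 ± 0.38). Jun, an immediate early factor, was 557, 584 and 655 in the Eif2a mutant and 478, 358 and 451 in the double mutant. Meg3, a nuclear noncoding RNA, was 2577, 2868 and 2722 in the Eif2a mutant and 3124, 3337 and 3387 in the double mutant. In limma over all 12 libraries without weights, 0 of these 5 genes were called in the comparison of the double mutant with the Eif2a mutant.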
